A study of Trichoderma reesei with 15 samples.

Results

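The genes described are the 100 whose transcripts were the most abundant in the parent strain of the filamentous fungus Trichoderma reesei growing on cellulose, out of 10879 genes counted by RNA sequencing. They were chosen by their mean CPM over 4 parent libraries, where CPM is a gene's count in each 1000000 counts of its library. The levels in the parent therefore chose the genes and are given as a description. The deletion libraries played no part in the ranking.

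The parent QM6aΔmus53 and 3 strains that each lack a further gene (pp2A, pph5 or pph5-2) were grown for 96 h at 28 °C in minimal medium with cellulose, in constant darkness. RNA came from mycelium. The 15 libraries formed 5 groups by their titles. These were Δpp2A with the tag DD1 (4 libraries), Δpph5 with DD1 (3 libraries), Δpph5-2 with DD3 (4 libraries), the parent with DD1 (2 libraries) and the parent with DD3 (2 libraries). All strains lack mus53, whose product takes part in the joining of broken DNA ends. The labels do not explain the tags DD1 and DD3, so strain and tag cannot be told apart wherever Δpph5-2 is set against a DD1 strain. In the labels, Δpp2A replicate 1 carries the type WT and the source name of the Δpph5-2 libraries is that of Δpph5. The titles decided the group. Nothing in the labels says that replicates came from separate cultures, or that a strain is represented by more than 1 transformant, so the p-values reflect the scatter among these libraries alone, and that scatter may be technical.

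Trichoderma reesei feeds on plant cell walls by secreting enzymes that break down cellulose and hemicellulose, and on cellulose the transcripts of these enzymes are known to be among the most abundant in the cell. Other abundant transcripts of growing fungal cells usually encode ribosomal proteins, translation factors, glycolytic enzymes and small secreted proteins. PP2A and PP5 are serine/threonine protein phosphatases of the same family, which remove phosphate groups from proteins. The identifiers in the deposited table are paired with no gene names, and 0 of them matched the reference table of 9116 genes used here. Which of the 100 genes belong to these classes is therefore not given, and genes are named by their identifiers alone.

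Each library held between 6026511 and 13572121 counts, and the members were counted deeply: the lowest count of any member was 36 in any library and 688 in the parent libraries. All 100 passed the filter on low counts, which kept 8912 genes. For each deletion strain 1 gene, itself no member, was picked because it was nearly absent there. Its absence is therefore no independent check of the labels. TrG1101W had 0, 0, 0 and 0.479 CPM in the 4 Δpp2A libraries, against 26.4 to 38.3 CPM in the other 11 libraries. TrE1020W had 0 counts in the 3 Δpph5 libraries, against 104.5 to 146.7 CPM in the libraries of the other groups. TrE0027W had 0 counts in the 4 Δpph5-2 libraries, against 11.3 to 37.1 CPM in the libraries of the other groups. These are candidates for the deleted genes, since the files do not name them. The 0 counts of TrG1101W in Δpp2A replicate 3 allow a level of up to 0.279 CPM (3 counts, covering counting error only).

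Parent levels of the 100 genes spanned 14.7-fold, with 6 genes above 5000 CPM and 65 under 2000 CPM. The boundary of the list fell where levels change little from rank to rank. TrC1357C at rank 99 averaged 1197 CPM over the parent libraries and TrB1588C at rank 100 averaged 1196 CPM, while TrC1118W and TrE1192C, the next 2 in rank and outside the list, averaged 1193 and 1189 CPM. CPM does not correct for gene length, and the members were long. The median deposited length of the members was 1669.5 bases, with quartiles of 1053 and 2677.5 bases, against a median of 1113 bases over all genes listed. Of the members, 14 were longer than 5000 bases, and only 45 would also be among the 100 highest by CPM per kilobase. The shortest was the highest of all: TrC1130C, with 261 bases, had 67300 CPM per kilobase in the parent. TrG0087C, with 309 bases, came next with 11080 CPM per kilobase, although its CPM placed it at rank 16. The longest was TrG0248C with 25413 bases at rank 91. Identifiers with the letter C gave 20 members, those with E 18, B 16, G 15, A 12, D 11 and F 8. Among all genes tested the letter A was the most frequent, with 20.3%, against 15% for C and 12.2% for E.

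The 100 genes held a smaller share of all counts in Δpp2A than in any other group. Their share was 15.9% ± 0.642 in Δpp2A (SD, n = 4), 24.2% ± 2.09 in Δpph5 (SD, n = 3) and 23.8% ± 2.15 in Δpph5-2 (SD, n = 4), and in the parent it was 24.5% and 25.8% with DD1 and 24.6% and 25.5% with DD3. The 4 Δpp2A libraries lay between 15.4% and 16.8%, below the 3 Δpph5 libraries at 21.8% to 25.8% and the 4 Δpph5-2 libraries at 21.4% to 25.9%. The 12 highest members held 4.09% ± 0.328 in Δpp2A (SD, n = 4), 7.76% ± 0.296 in Δpph5 (SD, n = 3) and 9.19% ± 1.21 in Δpph5-2 (SD, n = 4). The other 88 held 11.8% ± 0.325 in Δpp2A, 16.4% ± 2.32 in Δpph5 and 14.6% ± 1.1 in Δpph5-2. Both the top 12 and the remainder thus had a lower share in Δpp2A.

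A list picked in the parent loses share wherever other genes take its place, so the same sum was also taken over each library's own 100 highest genes, which does not depend on the parent ranking. These held 20.4% ± 0.111 of the counts in Δpp2A (SD, n = 4), 26.5% ± 1.69 in Δpph5 (SD, n = 3) and 25.8% ± 1.58 in Δpph5-2 (SD, n = 4). All 4 Δpp2A libraries, at 20.3% to 20.5%, were below every Δpph5 and Δpph5-2 library. In exact two-sided permutation tests of this share the p was 0.0571 against Δpph5 and 0.0286 against Δpph5-2. These are the smallest that 4 against 3 and 4 against 4 libraries can give. Adjusted over these comparisons by Benjamini-Hochberg, both were 0.0571. Neither adjusted value could have been under 0.05, whatever the shares were.

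**Figure D1:**
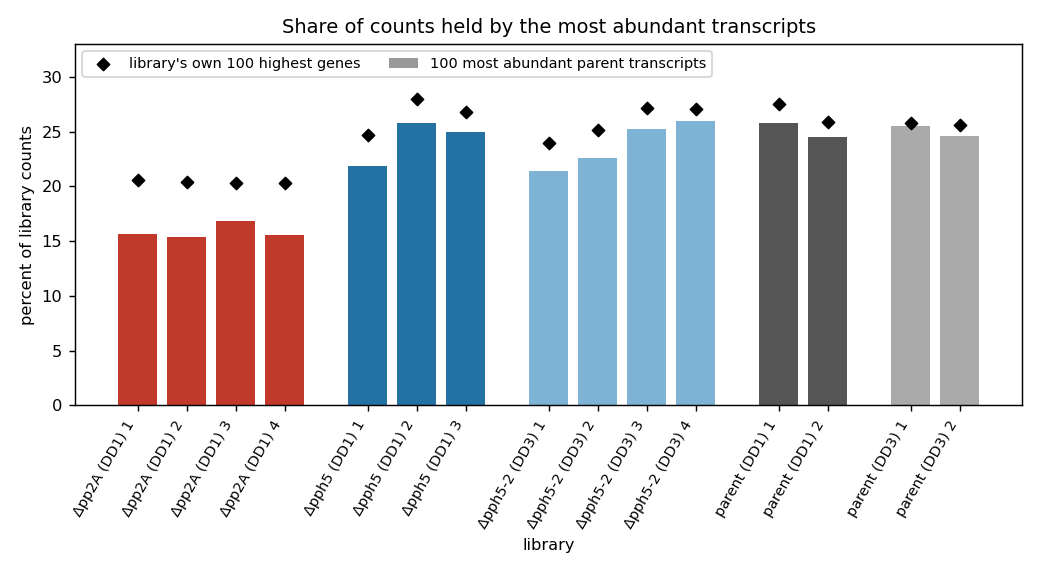
Percent of each library's counts (vertical axis) held by the 100 genes with the highest mean CPM in the parent (bars, one per library) and by the library's own 100 highest genes (diamonds). The Δpp2A bars lie between 15.4% and 16.8%, below all bars of the other groups, which lie between 21.4% and 25.9%.

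Among the 12 most abundant parent transcripts, 3 kinds of behaviour stood side by side: a deep fall in Δpp2A, near-constant levels, and wide variation within groups. In the edgeR test of Δpp2A against Δpph5 that was fitted over all 8912 genes, with an adjusted p under 0.05 as the call, 8 of the 12 were called lower and 0 higher, where 19.6% of all genes tested were called lower and 14.1% higher. Against Δpph5-2, 6 of the 12 were called lower and 0 higher, where 11% of all genes were called lower and 9.08% higher. Both tests share the Δpp2A libraries, and the direction is partly built in by picking genes high in the parent. Log2 fold changes are scaled by TMM, a normalization that sets the bulk of genes equal between libraries, while levels per library are CPM of the library total.

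TrC1166C, at rank 2, had 1175, 219, 3778 and 1019 CPM in the Δpp2A libraries, against 17665, 12565 and 13618 CPM in Δpph5 and 13028 to 17746 CPM in Δpph5-2. The parent libraries had 12362 to 14864 CPM. Every Δpp2A library was below every other library, and the other groups overlapped. Its mean over the 7 Δpph5 and Δpph5-2 libraries was 9.85-fold higher than in Δpp2A. The log2 fold change was −3.56 (SE 0.65) for Δpp2A against Δpph5 (edgeR, adjusted p = 0.00236) and −3.52 (SE 0.63) against Δpph5-2 (edgeR, adjusted p = 0.00202). Without Δpp2A replicate 3 these were −4.51 and −4.48.

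TrG0022C, at rank 3, differed more between the Δpp2A libraries than between strains outside Δpp2A. It had 231, 134, 5071 and 340 CPM in Δpp2A, against 17649, 9661 and 9521 CPM in Δpph5 and 18290 to 25192 CPM in Δpph5-2. The parent had 6730 and 14162 CPM with DD1 and 9655 and 8095 CPM with DD3. Replicate 3 of Δpp2A was 21.6-fold above the mean of the other 3, yet below all libraries of the other groups. The log2 fold change was −3.38 (SE 1.02) against Δpph5 (edgeR, adjusted p = 0.0258) and −4.12 (SE 1.02) against Δpph5-2 (edgeR, adjusted p = 0.0139). Without Δpp2A replicate 3 the change was −6.01 against Δpph5 (edgeR, adjusted p = 4.23e-06) and −6.76 against Δpph5-2 (edgeR, adjusted p = 1.39e-06). The call against Δpph5 was lost when Δpp2A replicate 1 or 4 or Δpph5 replicate 2 or 3 was left out, with adjusted p of 0.0555, 0.0611, 0.0577 and 0.0538 in edgeR.

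TrE0630C was lower in all 4 Δpp2A libraries by about the same amount. It had 696, 660, 683 and 662 CPM in Δpp2A, against 2461, 4329 and 4532 CPM in Δpph5 and 2684, 2917, 3153 and 3705 CPM in Δpph5-2. Here replicate 3 of Δpp2A did not stand apart. The log2 fold change was −2.87 (SE 0.26) against Δpph5 (edgeR, adjusted p = 2.1e-05) and −2.39 (SE 0.25) against Δpph5-2 (edgeR, adjusted p = 3.85e-05).

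TrA1490C and TrC1208W fell in Δpp2A and also varied within Δpph5. TrA1490C had 159, 166, 567 and 212 CPM in Δpp2A, against 1667, 4712 and 4409 CPM in Δpph5 and 1876 to 3265 CPM in Δpph5-2. TrC1208W had 196, 192, 1097 and 277 CPM in Δpp2A, against 1392, 6454 and 6162 CPM in Δpph5 and 1754 to 4021 CPM in Δpph5-2. For both, the lowest library outside Δpp2A was Δpph5 replicate 1 and the highest library within Δpp2A was replicate 3. The log2 fold changes against Δpph5 were −4.10 (SE 0.54) for TrA1490C and −3.82 (SE 0.74) for TrC1208W (edgeR, adjusted p = 0.000305 and 0.00341). Against Δpph5-2 they were −3.45 (SE 0.51) for TrA1490C and −2.92 (SE 0.69) for TrC1208W (edgeR, adjusted p = 0.00057 and 0.0112). Without Δpp2A replicate 3 the changes were −4.74 and −4.09 for TrA1490C and −4.82 and −3.92 for TrC1208W, against Δpph5 and Δpph5-2 in this order.

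Of the 12, 4 stayed within a narrow band in all strains. TrC1333W had 9156, 9460, 8179 and 8948 CPM in Δpp2A, against 9371, 7400 and 7125 CPM in Δpph5 and 8905 to 9764 CPM in Δpph5-2. By mean CPM it ranked 1 in Δpp2A and 4 in the parent. TrC0653W had 4567 to 5023 CPM in Δpp2A, against 3954 to 5022 CPM in Δpph5 and 4319 to 4602 CPM in Δpph5-2. Neither passed the test against Δpph5, with log2 fold changes of −0.17 (SE 0.10) for TrC1333W and −0.19 (SE 0.09) for TrC0653W (edgeR, adjusted p = 0.231 and 0.107). With scaling by library size alone both had the other sign, at 0.17 for TrC1333W and 0.14 for TrC0653W. TrE0124C was the steadiest member over the 11 deletion libraries, with an SD of 0.0676 on the log2 CPM scale, and had 3698 to 4080 CPM in Δpp2A, against 3474 to 4056 CPM in Δpph5 and 3666 to 3916 CPM in Δpph5-2. TrB0644C had 3397 to 3592 CPM in Δpp2A, against 3756 to 3950 CPM in Δpph5 and 3286 to 4038 CPM in Δpph5-2.

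TrE0124C and TrB0644C were nevertheless called lower in Δpp2A than in Δpph5, at −0.31 (SE 0.10) and −0.50 (SE 0.15) on the log2 scale (edgeR, adjusted p = 0.0353 and 0.0247). The CPM of TrE0124C overlapped between the groups, and its change was 0.03 with scaling by library size alone, where TrB0644C had −0.15 and was not called. Both calls were lost without any 1 of the Δpp2A libraries and without Δpph5 replicate 2 or 3, at adjusted p from 0.0606 to 0.15 for TrE0124C and from 0.0508 to 0.112 for TrB0644C (edgeR).

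The remaining 3 of the 12 varied by at least 2-fold between libraries of 1 or more groups. TrC1130C, the most abundant parent transcript, had 5877, 6518, 5669 and 6968 CPM in Δpp2A, against 10042, 5215 and 3676 CPM in Δpph5, 10931 to 20269 CPM in Δpph5-2, and 4613 and 23281 CPM in the parent with DD1. It was called lower against Δpph5-2, at −1.41 (SE 0.40) (edgeR, adjusted p = 0.0279), and did not pass against Δpph5, at −0.30 (SE 0.42) (edgeR, adjusted p = 0.594). The call against Δpph5-2 was lost without any 1 of the Δpp2A libraries and without Δpph5-2 replicate 3 or 4, at adjusted p from 0.0608 to 0.0823 (edgeR), and with scaling by library size, at 0.066 (edgeR, adjusted p). The Δpp2A libraries of TrC1130C lay between the extremes of Δpph5 and below all of Δpph5-2.

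TrE0998W had 3013, 3072, 3984 and 3073 CPM in Δpp2A, against 3330, 12476 and 10600 CPM in Δpph5 and 3023, 3063, 3177 and 5766 CPM in Δpph5-2. Its parent libraries had 11005 and 3464 CPM with DD1 and 8083 and 3922 CPM with DD3. Outside Δpp2A, 1 library of Δpph5, 3 of Δpph5-2 and 1 of each parent were thus near the Δpp2A level and the others well above it. The call against Δpph5, at −1.84 (SE 0.53) (edgeR, adjusted p = 0.0224), was lost without Δpp2A replicate 1, 2 or 4 or Δpph5 replicate 2 or 3, at adjusted p from 0.0553 to 0.107 (edgeR). TrD0455W had 5114 to 6276 CPM in Δpp2A, against 3073 to 4311 CPM in Δpph5 and 5106 to 6287 CPM in Δpph5-2, with 3439 and 7008 CPM in the DD1 parent, and did not pass against Δpph5 at 0.38 (SE 0.17) (edgeR, adjusted p = 0.0893).

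**Figure D2:**
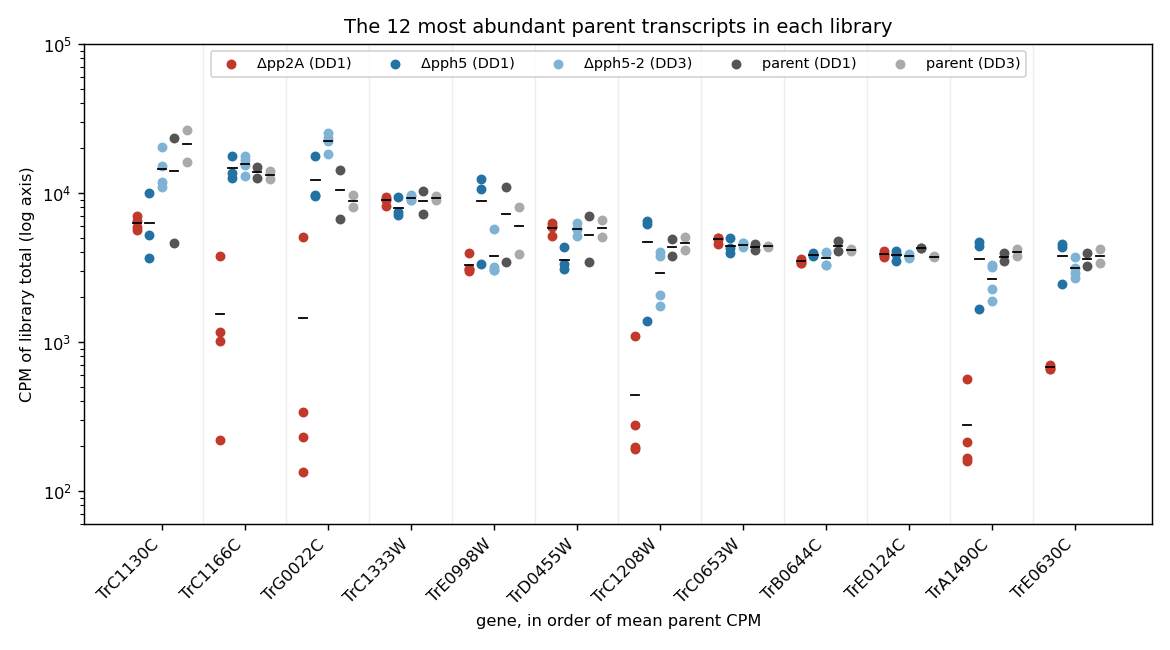
CPM on a log axis of the 12 genes with the highest mean CPM in the parent, one point per library, coloured by group, with a short bar at each group mean and genes in order of parent rank from left to right. TrC1166C, TrG0022C, TrC1208W, TrA1490C and TrE0630C have all 4 Δpp2A points below all other points, while TrC1333W, TrC0653W, TrB0644C and TrE0124C lie in narrow bands.

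Over the whole list, Δpp2A differed from Δpph5 far more often downwards than upwards. Of the 100 members 69 were called in edgeR, 61 lower and 8 higher in Δpp2A. Of all genes tested 33.8% were called, 19.6% lower and 14.1% higher. Called falls of at least 2-fold numbered 42 among the 100 members, against 945 among the 8912 genes tested. They were at least 4-fold in 30 members and at least 8-fold in 23, for which no count over all genes is given. Of the 8 that rose, 3 did so by at least 2-fold. The median log2 fold change was −0.75 over the members and −0.02 over all genes tested. The members were picked for a high level in the parent, and the Δpph5 libraries lie near the parent, so a gene much higher in Δpp2A had less chance to enter the list than one much lower. The direction is partly built in by the choice, and no more is read from it.

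The share called lower declined with parent rank beyond the list as well, a trend that ranking by the parent level also partly builds in. It was 61% for the first 100 ranks, 50% for the next 100, 38% from there to rank 500, 37.2% from there to rank 1000 and 16.9% for the genes tested below that. The share called higher was 8%, 7%, 10.7%, 8% and 14.8% in the same order. The median log2 fold change of these groups of genes was −0.75, −0.39, −0.29, −0.19 and 0.00 in the same order. Within the list, ranks 1 to 50 had 30 genes called lower and ranks 51 to 100 had 31.

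The count rests on scaling and on single libraries. With scaling by library size alone, which shifts the fold changes of all genes upwards by 0.32 (median, log2), 49 members were called lower and 16 higher, where 10.5% of all genes were called lower and 29.5% higher. DESeq2 called 71 members, where it called 39.5% of all genes. Without Δpph5 replicate 2 the count was 38 (36 lower), and without Δpph5 replicate 3 it was 41, all lower. The share of all genes called also dropped, to 17.3% in each case.

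**Figure D3:**
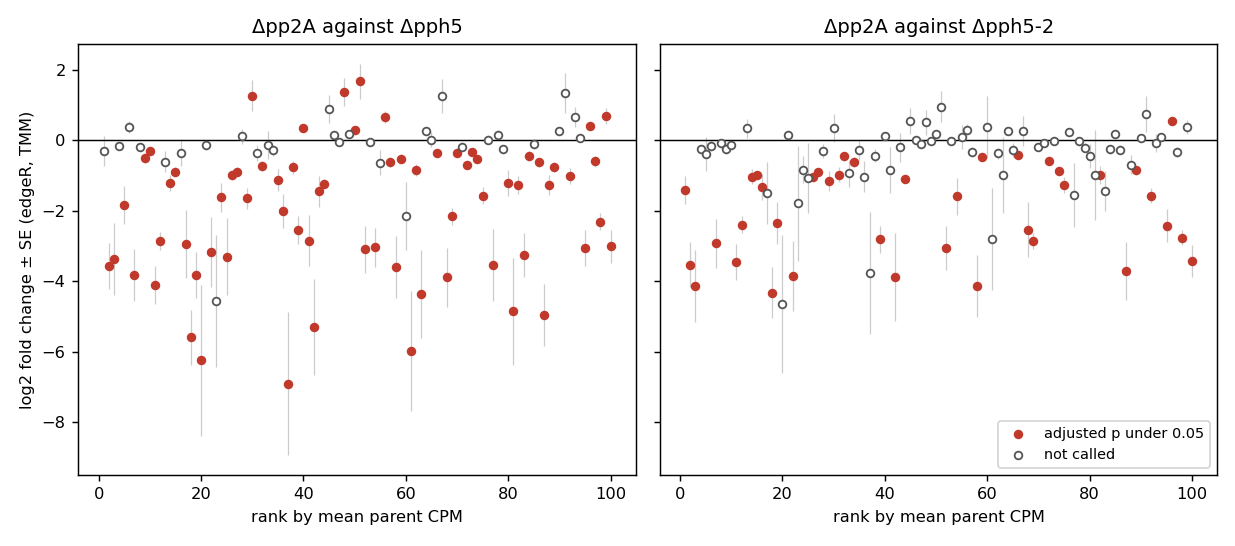
Log2 fold change with its SE (vertical axis) of each of the 100 genes against its parent rank (horizontal axis), for Δpp2A against Δpph5 and for Δpp2A against Δpph5-2, with called genes in colour. Called falls are spread over all ranks, 61 of them against Δpph5 and 38 against Δpph5-2.

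The members that moved furthest between Δpp2A and Δpph5 with no overlap of libraries were TrD0360W and TrF1148C downwards and TrC1011W and TrB0335W upwards. TrD0360W had 45.7, 53.4, 307 and 100.9 CPM in Δpp2A, against 1530, 6191 and 6041 CPM in Δpph5 and 1874 to 2631 CPM in Δpph5-2. It ranked 1984 in Δpp2A, against 10 in Δpph5 and 18 in the parent. Its log2 fold change was −5.59 (SE 0.78) against Δpph5 (edgeR, adjusted p = 0.000452) and −4.33 (SE 0.72) against Δpph5-2 (edgeR, adjusted p = 0.00135), and −6.53 and −5.27 without Δpp2A replicate 3. TrF1148C had 22.7, 30.9, 78.1 and 41.1 CPM in Δpp2A, against 112, 1884 and 1739 CPM in Δpph5 and 47.8, 44.7, 587 and 1458 CPM in Δpph5-2. It fell by 5.29 (SE 1.36) on the log2 scale against Δpph5 (edgeR, adjusted p = 0.0137), although 1 library of Δpph5 and 2 of Δpph5-2 were also low and overlapped or came near the Δpp2A range.

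TrC1011W had 6692, 6479, 5263 and 6151 CPM in Δpp2A, against 3344, 631 and 920 CPM in Δpph5 and 3740, 3303, 2438 and 1825 CPM in Δpph5-2. All 4 Δpp2A libraries were above the 7 others, and the gene ranked 3 in Δpp2A, against 51 in the parent. It rose by 1.68 (SE 0.50) on the log2 scale against Δpph5 (edgeR, adjusted p = 0.0236) and had 0.96 (SE 0.44) against Δpph5-2 (edgeR, adjusted p = 0.153), where it passed without Δpph5 replicate 1 (edgeR, adjusted p = 0.0478). Against Δpph5 the change was 2.53 without Δpph5 replicate 1 (edgeR, adjusted p = 0.00132), and the call was lost without Δpp2A replicate 1 or Δpph5 replicate 2 or 3, at adjusted p of 0.0509, 0.0899 and 0.0953 (edgeR).

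TrB0335W had 4174, 4514, 3505 and 4271 CPM in Δpp2A, against 1444, 1142 and 1200 CPM in Δpph5 and 3790, 3862, 1657 and 1118 CPM in Δpph5-2. The Δpph5-2 libraries split, with replicates 1 and 2 in the Δpp2A range and replicates 3 and 4 near Δpph5. Its log2 fold change was 1.37 (SE 0.40) against Δpph5 (edgeR, adjusted p = 0.0216), and was not called without Δpph5 replicate 2 or 3, at adjusted p of 0.0693 and 0.0714 (edgeR).

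Against Δpph5-2 the pattern had the same main direction with fewer calls. Of the members 39 were called in edgeR, 38 lower and 1 higher in Δpp2A. Of all genes tested 20.1% were called, 11% lower and 9.08% higher. Called falls of at least 2-fold numbered 27 among the members, against 458 among the 8912 genes tested. They were at least 8-fold in 10 members, for which no count over all genes is given. The median log2 fold change was −0.54 over the members and −0.01 over all genes. DESeq2 called 42, where it called 25.8% of all genes. The only member called higher was TrG0785W, with 1902, 2106, 1738 and 1959 CPM in Δpp2A, against 1383, 1251, 1040 and 970 CPM in Δpph5-2 and 1113 to 1153 CPM in Δpph5. Its log2 fold change was 0.56 (SE 0.11) against Δpph5-2 (edgeR, adjusted p = 0.00357). Among the called falls without overlap the largest after TrD0360W was that of TrE0671C, with 51.1, 25.4, 642 and 61.1 CPM in Δpp2A, against 2708, 3419, 3075 and 2977 CPM in Δpph5-2 and 1583 to 2475 CPM in Δpph5. It fell by 4.13 (SE 0.88) on the log2 scale (edgeR, adjusted p = 0.00597). Without Δpp2A replicate 3 its change was −6.24 (edgeR, adjusted p = 3.38e-07).

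Levels in single libraries were also compared without a model. In 34 members all 4 Δpp2A libraries were below all 7 Δpph5 and Δpph5-2 libraries, where this held for 5.44% of all genes tested. In 16 members all 4 were above, where this held for 23.3% of all genes. In the other 50 the libraries overlapped. The members were picked for a high level in the parent, so the excess of members below is partly built in. On the TMM scale, whose factors were 1.13 to 1.15 in Δpp2A, 40 members were below and 9 above, where 11.1% and 11.7% of all genes were. Of the 34, the Δpp2A mean was lower by more than 2-fold in 22, more than 4-fold in 19, and more than 10-fold in 6. For these depths no share over all genes is given, so the counts are a description.

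Members that were steady in the other deletion strains were also looked at on their own. The 7 Δpph5 and Δpph5-2 libraries spanned less than 2-fold in 47 members. Of these, 16 were below all 7 in Δpp2A, where 5.66% of all genes of this class were. Of the 16, 4 were lower by more than 2-fold in the mean, for which no share over all genes is given, so no more is read from this count. These 4, named after their values were seen, were TrC1166C, TrE0630C, TrA1372C and TrG1158C. TrA1372C had 183, 37.4, 677 and 164 CPM in Δpp2A, against 1666, 1847 and 1846 CPM in Δpph5 and 1827, 1990, 1989 and 2036 CPM in Δpph5-2. The parent had 1598 to 1924 CPM, so 11 libraries of 4 groups lay close together and the Δpp2A libraries spread over 18.1-fold below them. TrG1158C had 427, 539, 610 and 549 CPM in Δpp2A, against 932 to 1495 CPM in Δpph5 and 902 to 1313 CPM in Δpph5-2. Its log2 fold change was −1.58 (SE 0.24) against Δpph5 (edgeR, adjusted p = 0.000726) and that of TrA1372C was −3.10 (SE 0.65) (edgeR, adjusted p = 0.00522), or −4.16 without Δpp2A replicate 3.

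The members that varied most between the other deletion libraries had the lowest median Δpp2A level relative to them. Where the 7 libraries spanned 2- to 4-fold (27 members), the median ratio of the Δpp2A mean to their mean was 0.685, and where they spanned at least 4-fold (26 members) it was 0.211, against 0.933 in the 47 steady members. Over all genes tested the medians of these classes were 1.22, 0.916 and 1.15 in the same order. Separation did not follow that order: the Δpp2A libraries were below all 7 in 16 of the 47 steady members, 11 of the 27 and 7 of the 26 most variable, where 5.66%, 6.57% and 4.17% of all genes of these classes were.

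**Figure D4:**
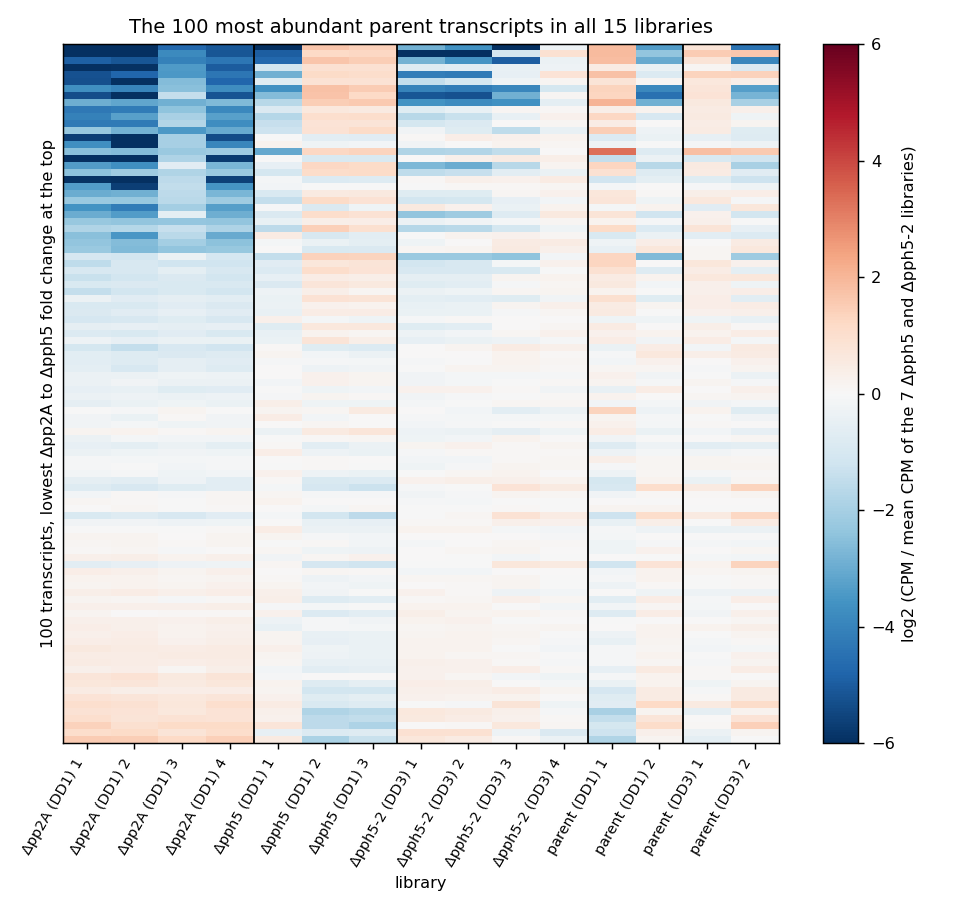
Log2 CPM of the 100 genes (rows, sorted from the lowest Δpp2A to Δpph5 fold change at the top) in the 15 libraries (columns, by group) relative to each gene's mean over the 7 Δpph5 and Δpph5-2 libraries, with colours limited to 6 on either side of 0. The Δpp2A columns hold the most blue cells, replicate 3 of Δpp2A is paler than its 3 neighbours, and Δpph5 replicate 1 and parent DD1 replicate 2 are low in many of the same rows.

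Replicate 3 of Δpp2A stood apart from the other 3 Δpp2A libraries at many members that were low there. It was more than 2-fold above the next highest Δpp2A library in 17 members, where this held for 2.77% of all genes tested, and 12 of the 17 were still below all 7 Δpph5 and Δpph5-2 libraries. It was the highest of the 4 in 43 of the 100 members, where this held for 27.3% of all genes, and in 27 of the 34 members that were below all 7, where it held for 61.9% of all genes below all 7. Members more than 10-fold below their parent mean numbered 20, 21, 8 and 19 in Δpp2A replicates 1 to 4. In the libraries of the other groups they numbered 0 to 8. The parent mean ranked the genes, so such falls are partly built in, and no share over all genes is given. The candidate for the deleted gene had 0 counts in replicate 3. Without replicate 3 the members below all 7 libraries were 38, where this held for 7.46% of all genes, and the count called against Δpph5 was 59 (53 lower and 6 higher), where 27.2% of all genes were called.

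**Figure D5:**
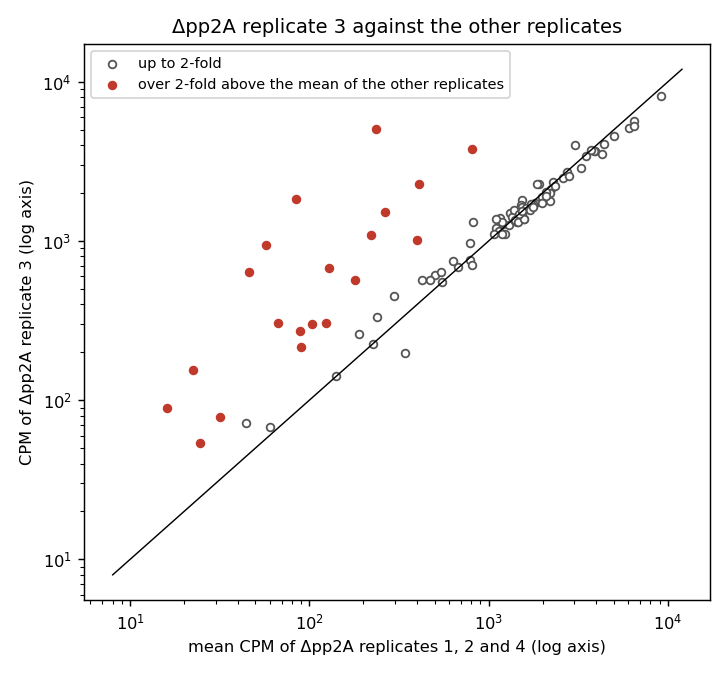
CPM in Δpp2A replicate 3 (vertical axis) against the mean CPM of Δpp2A replicates 1, 2 and 4 (horizontal axis), both on log axes, one point per member. In colour are the 20 members in which replicate 3 was more than 2-fold above that mean, most of which lie at the low end.

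No member was called by edgeR between Δpph5-2 and Δpph5 in the full set of libraries. In edgeR 0 members were called, where 0.0224% of all genes tested were called, and the lowest adjusted p was 0.157. At an unadjusted p under 0.05 there were 26 members, near the 23.5% of all genes. All Δpph5-2 libraries were above all Δpph5 libraries in CPM in 14 members and below them in 3, where 7.25% and 3.7% of all genes were. DESeq2 called 7, 5 lower and 2 higher in Δpph5-2, where it called 6.49% of all genes, 4.58% lower and 1.91% higher. Leaving out Δpph5 replicate 1 moved the count to 36 in edgeR, 24 lower and 12 higher, with 25.5% of all genes called, so the result rests on that library. Strain and tag differ together in this comparison.

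The comparisons with the parent use the libraries that chose the members, so their counts are given as a description. In Δpp2A against the parent with DD1, 47 members were called in edgeR, all lower, where 18.7% of all genes tested were called, 10.7% lower and 7.94% higher, and 27 without replicate 1 of that parent. DESeq2 called 56, where it called 25.9% of all genes. In Δpph5 against the same parent 0 were called in edgeR and in DESeq2. Of all genes 0.0112% were called in edgeR and 0.281% in DESeq2. At an unadjusted p under 0.05 in edgeR there were 5 members, against 573 of the 8912 genes tested. In Δpph5-2 against the parent with DD3 0 were called in edgeR, where 0.0112% of all genes were called. Here 5 members had an unadjusted p under 0.05 in edgeR, against 770 of the 8912 genes tested. DESeq2 called 1 member, where it called 0.899% of all genes. Without Δpph5 replicate 1, which enters the shared estimate of spread, edgeR also called 1.

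When the 100 genes were ranked by the DD3 parent libraries alone and tested against the DD1 parent, 46 were called lower and 0 higher in Δpp2A by edgeR, where 18.7% of all genes were called, and 28 without replicate 1 of the DD1 parent, where 10.1% were. For Δpph5 against the DD1 parent 0 of these were called in edgeR and in DESeq2. Of these, 6 had an unadjusted p under 0.05 in edgeR, against 573 of the 8912 genes tested. Ranked by the DD1 parent and tested against the DD3 parent, 0 were called for Δpph5-2 by edgeR. At an unadjusted p under 0.05 in edgeR there were 5, against 770 of the 8912 genes tested. DESeq2 called 1, as did edgeR without Δpph5 replicate 1. These rankings are only partly independent of the tests. Parent libraries of the same number deviated together across the tags, with a correlation of 0.744 over genes. Each parent group holds 2 libraries, whose deviations from their mean mirror each other. Both numbers therefore give the same single value.

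The parent itself was not uniform at these genes. Replicates 1 and 2 of the DD1 parent differed by more than 2-fold in 36 members, 19 higher in replicate 1 and 17 in replicate 2. They differed by more than 4-fold in 17, where 9.67% of all genes tested did. In the DD3 parent 17 members differed by more than 2-fold and 7 by more than 4-fold, where 4.5% of all genes tested differed by more than 4-fold. Of the 36, 33 differed in the same direction in the DD3 parent. For the 2-fold counts and for this one no share over all genes is given. These libraries chose the members, and a mean can be carried by 1 high library. Spread between them is therefore partly built in, and the counts are a description.

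TrE0660W showed the widest difference when both tags were averaged on the log2 scale, with 5307 CPM in replicate 1 and 138 CPM in replicate 2 of the DD1 parent, and 2387 and 65.5 CPM in the DD3 parent. It had 16.5, 15.1, 54.0 and 41.6 CPM in Δpp2A, against 13.7, 4516 and 3842 CPM in Δpph5 and 190, 112, 22.4 and 1145 CPM in Δpph5-2. Every group outside Δpp2A therefore held both low and high libraries. TrE0659C, whose identifier carries the preceding number, moved in the same way, with 34.2 to 72.4 CPM in Δpp2A, against 45.1, 3737 and 3343 CPM in Δpph5 and 39.0 to 921 CPM in Δpph5-2. Its parent replicates 1 and 2 differed 28.6-fold with DD1 and 25.9-fold with DD3. Only TrE0659C with TrE0660W and TrC0441C with TrC0442W carry consecutive numbers among the members, and the files do not say whether consecutive numbers mean neighbouring genes. TrC0441C had 1472 to 1638 CPM in Δpp2A, against 1410 to 2495 CPM in Δpph5 and 1807 to 1997 CPM in Δpph5-2, and TrC0442W had 1110 to 1325 CPM in Δpp2A, against 1348 to 2036 CPM in Δpph5 and 1467 to 1725 CPM in Δpph5-2.

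In the other direction, TrG0248C and TrA1493W were higher in parent replicate 2. TrG0248C had 372 and 1644 CPM in the DD1 parent and 805 and 2057 CPM in the DD3 parent. In the deletion strains it had 1994, 1507, 1705 and 1692 CPM in Δpp2A, against 1271, 262 and 211 CPM in Δpph5 and 793 to 1194 CPM in Δpph5-2. It did not pass the test against Δpph5, at 1.35 (SE 0.57) on the log2 scale (edgeR, adjusted p = 0.0865), although all 4 Δpp2A libraries were above the others. Without Δpph5 replicate 1 it was called, at 2.39 (edgeR, adjusted p = 0.00405). TrA1493W had 986 to 1258 CPM in Δpp2A, against 656 to 1630 CPM in Δpph5 and 1478 to 2400 CPM in Δpph5-2, and 654 and 2656 CPM in the DD1 parent.

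Δpph5 replicate 1 stood to replicates 2 and 3 much as parent DD1 replicate 2 stood to replicate 1. Δpph5 replicate 1 was more than 2-fold below both other Δpph5 libraries in 26 members, and in 18 of these parent DD1 replicate 2 was more than 2-fold below replicate 1. Over the 100 members the log2 ratio of replicate 1 to replicate 2 in the DD1 parent and that of replicates 2 and 3 to replicate 1 in Δpph5 had a correlation of 0.92, and over all genes tested 0.738. Both are descriptions across genes of the same 5 libraries. Members more than 4-fold apart within a group numbered 14 in Δpp2A, 19 in Δpph5, 10 in Δpph5-2, 17 in the DD1 parent and 7 in the DD3 parent, where 6.22%, 13.4%, 9.44%, 9.67% and 4.5% of all genes tested were.

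TrB0598W varied most of all members over the 11 deletion libraries, with an SD of 3.76 on the log2 CPM scale. It had 3.23, 9.79, 88.7 and 35.4 CPM in Δpp2A, against 39.7, 2784 and 2918 CPM in Δpph5 and 8.25, 5.89, 586 and 2304 CPM in Δpph5-2. The parent had 4589 and 236 CPM with DD1 and 3513 and 3766 CPM with DD3. In 1 library of Δpph5 and 2 of Δpph5-2 its level lay within the Δpp2A range. TrC0491W, next in steadiness to TrE0124C with an SD of 0.10, had 1402 to 1547 CPM in Δpp2A, against 1417 to 1621 CPM in Δpph5 and 1283 to 1380 CPM in Δpph5-2.

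The list changed membership most in Δpp2A. Of the 100, 63 were among the 100 highest by mean CPM in Δpp2A, 82 in Δpph5, 79 in Δpph5-2, 94 in the DD1 parent and 95 in the DD3 parent. In Δpp2A 15 members ranked below 1000, in Δpph5 0 and in Δpph5-2 2. The members furthest down in Δpp2A were TrE0660W at rank 4873 and TrB0598W at rank 4719. In Δpph5 they were TrG0220C at rank 321 and TrG0248C at rank 291, and in Δpph5-2 TrG0220C at rank 1430 and TrE1049W at rank 1058. TrG0220C had 52.0 to 72.6 CPM in Δpp2A, against 38.1, 750 and 808 CPM in Δpph5 and 92.2, 95.1, 115 and 326 CPM in Δpph5-2, and its parent libraries had 3138 and 188 CPM with DD1 and 1123 and 951 CPM with DD3. TrE1049W had 79.6 to 217 CPM in Δpp2A, against 99.1, 4122 and 3512 CPM in Δpph5 and 66.8 to 594 CPM in Δpph5-2.

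The places were taken by genes outside the list. In Δpp2A the largest gain among its 100 highest was that of TrD0136W, which ranked 78 there against 3619 in the parent, with 985 to 1428 CPM in Δpp2A, against 23.6 to 49.2 CPM in Δpph5 and 25.6 to 100.6 CPM in Δpph5-2. TrC0402C followed at rank 19 against 1698 in the parent, with 2887, 2630, 2625 and 2836 CPM in Δpp2A, against 199, 127 and 146 CPM in Δpph5 and 105 to 379 CPM in Δpph5-2. Both were chosen for their gain, so their difference is a description. In TrD0136W and TrC0402C replicate 3 of Δpp2A lay at or near the other 3. This did not hold for all genes named outside the list. Replicate 3 of Δpp2A had 417 CPM of TrC0773W (others 5.09 to 21.6) and 698 CPM of TrA1880W (others 36.9 to 48.8). For TrF0363W it had 1892 CPM (others 2005 to 2330). The largest gains in Δpph5 were those of TrF0363W and TrC0773W, whose 3 Δpph5 libraries lay far apart. TrF0363W had 8585, 605 and 2677 CPM in Δpph5 and 424 to 600 CPM in the 4 parent libraries, and TrC0773W had 88.5, 3257 and 2596 CPM in Δpph5 and 7.67 to 1685 CPM in the parent. In Δpph5-2 the largest gain was that of TrA1880W, with 1136, 1427, 1654 and 1319 CPM there and 215 to 689 CPM in the parent, followed by TrF0363W with 1790 to 2697 CPM in Δpph5-2.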

How the data were processed

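The deposited table holds raw read counts per gene for 15 libraries, made by the authors, with the gene length. Libraries were stranded and depleted of ribosomal RNA, per the labels' protocols. The submitters' processing notes name HISAT2 2.2.1 and give it no role. How reads were counted, the use of strand, the build and the annotation were not given in the sources used here. Overlapping, antisense or near-identical genes may share reads. Lengths were multiples of 3 in 99 of the 100 members.

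Genes were ranked by mean CPM over the 4 parent libraries, and the first 100 are the members. The test was that of edgeR 4.0.16 (R 4.3.3) on the deposited counts (TMM, filterByExpr, robust quasi-likelihood, 1 mean per group over all 15 libraries). P-values were adjusted by Benjamini-Hochberg over 8912 genes, and an adjusted p under 0.05 was called. TMM factors were 1.13 to 1.15 in Δpp2A, 0.802 to 1.05 in Δpph5, 0.956 to 1.06 in Δpph5-2 and 0.852 to 0.995 in the parent. Log2 CPM used a prior count of 2. The code was tested on simulated data. Alternatives were DESeq2 1.42.0, library size scaling, no filter, other samples in the fit, a replicate block, other rankings and single libraries left out.

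The members and lists were chosen with earlier results of these data known. Named genes are the 12 highest, ranks 99 to 102, the 2 most changed called members without overlap per direction and deletion comparison, the 2 steadiest and 2 most variable, the 2 with the largest parent replicate differences per direction, the 2 that lost and 2 that gained most rank per deletion group, the shortest, the longest and the 2 highest per kilobase. The planned gene classes were not counted, since identifiers could not be matched to names.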

Additional observations from a re-analysis of the deposited data

Results flagged for a closer look

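In groups of 4 libraries, the members named and the share of counts were searched for a library far from the other 3, and 13 of 60 sets of values were flagged. Chance flags about 1 in 20 of independent, unselected sets. These sets share the same libraries, and some genes were named for their spread, so the 2 rates cannot be compared. Over all genes tested, 631 of 8912 were flagged in Δpp2A and 570 in Δpph5-2, against 15 and 10 of the 100 members. No explanation was tested.

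In Δpp2A, replicate 3 was the highest library each time. It had 5071 CPM of TrG0022C (others 134 to 340), 3984 CPM of TrE0998W (others 3013 to 3073), 1097 CPM of TrC1208W (others 192 to 277), 567 CPM of TrA1490C (others 159 to 212), 642 CPM of TrE0671C (others 25.4 to 61.1) and 217 CPM of TrE1049W (others 79.6 to 96.0). The members held 16.81% of its counts and 15.41% to 15.62% in the others. Over all members this library was far from the others in 13, which is 13% of members, against 3.93% of all genes tested.

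In Δpph5-2, replicate 4 had 5766 CPM of TrE0998W (others 3023 to 3177), 1145 CPM of TrE0660W (others 22.4 to 190), 921 CPM of TrE0659C (others 39.0 to 169), 326 CPM of TrG0220C (others 92.2 to 115) and 594 CPM of TrE1049W (others 66.8 to 80.3). It was far from the others in 8 members, against 3.66% of all genes tested. Replicate 3 had 1194 CPM of TrG0248C (others 793 to 825).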

How the results depend on the processing

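Across 635 alternative values of 29 gene results, 580 kept their direction and side of the threshold, 40 fell short of it, 10 came to pass it and 5 changed sign. The changes of sign were in TrC1130C, with a range of −0.55 to 0.01 without single libraries (0.01 without Δpph5 replicate 1) and 0.0518 with Δpp2A replicate 3 left out too, and, with scaling by library size, in TrC1333W (0.17), TrC0653W (0.14) and TrE0124C (0.029). The causes were not tested.

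Leaving out 1 library gave 38 to 77 called members for Δpp2A against Δpph5, 32 to 45 for Δpp2A against Δpph5-2, 0 to 36 for Δpph5-2 against Δpph5, 27 to 59 for Δpp2A against the parent, 0 to 0 for Δpph5 against the parent and 0 to 1 for Δpph5-2 against the parent. The share of all genes called moved with these counts. At the ends of the ranges it was 17.3% and 47.7% for Δpp2A against Δpph5, and 13.9% and 24.4% against Δpph5-2. For Δpp2A against the parent it was 10.1% and 26.2%. The 36 for Δpph5-2 against Δpph5 came with 25.5%. With the list ranked by the DD3 parent, Δpp2A against the DD1 parent gave 28 to 58, and ranked by the DD1 parent, Δpph5-2 against the DD3 parent gave 0 to 1. With Δpp2A replicate 3 and Δpph5 replicate 1 left out, chosen after seeing the data, 75 members were called for Δpp2A against Δpph5, 33 for Δpph5-2 against Δpph5, and 1 for Δpph5-2 against the parent under both rankings. Of all genes 44.3%, 21.8% and 0.123% were called in these comparisons, in the same order. DESeq2 called 71, 42, 7 and 56 members in Δpp2A against Δpph5, Δpp2A against Δpph5-2, Δpph5-2 against Δpph5 and Δpp2A against the parent, and 1 in Δpph5-2 against the parent under both rankings. Of all genes it called 39.5%, 25.8%, 6.49%, 25.9% and 0.899%, in the same order.

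The members' share of counts ranged from 15.5% to 16.0% in Δpp2A, 23.4% to 25.4% in Δpph5, 23.1% to 24.6% in Δpph5-2, 24.5% to 25.8% in the DD1 parent and 24.6% to 25.5% in the DD3 parent without single libraries. For each library's own 100 highest genes, Δpp2A minus Δpph5 ranged from −7.04 to −5.37 percentage points and Δpp2A minus Δpph5-2 from −6.08 to −4.99. Ranked by CPM per kilobase the 100 highest held 11.7%, 18.6%, 18.8%, 19.4% and 20% in these groups, and ranked by the lowest parent CPM they held 23.3% in the DD1 and 23.6% in the DD3 parent.

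Replicate numbers did not pair the deletion strains: deviations of same-numbered libraries had correlations of 0.229, −0.127 and 0.215 for Δpp2A and Δpph5, of −0.0595 to 0.165 for Δpp2A and Δpph5-2, and of −0.365 to 0.363 for Δpph5-2 and Δpph5. Parent libraries of the same number did deviate together across the tags, at 0.744, a single value that both numbers share by construction. With the number as a replicate block, 65 members were called for Δpp2A against Δpph5 and 33 for Δpp2A against Δpph5-2. Of all genes 26.3% and 16.4% were called under this setting, in the same order. Depth was ample for the members, and the number of libraries limits the precision.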
